A study of Mus musculus with 12 samples.

Results

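The mouse mitochondrial genome encodes proteins of the respiratory chain and the RNAs needed to translate them, and 10 of its genes are described here. They are 8 messenger RNAs, mt-Nd1, mt-Nd2, mt-Nd4, mt-Nd5, mt-Nd6, mt-Cytb, mt-Co1 and mt-Atp6, and 2 ribosomal RNAs, mt-Rnr1 and mt-Rnr2. They were chosen by name among the genes that the table of 55806 genes places on chromosome MT, which number 37 in all. All 10 were found and all 10 passed the filter on low values. The remaining 27 are 5 other mRNAs and 22 tRNAs, which are given as counts and ranges.

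The RNA came from osteoclasts, the cells that resorb bone, grown for 4 days with the cytokines M-CSF and RANKL from monocytes that were taken from the marrow of mice aged 8 to 12 weeks. There were 4 groups of 3 libraries, control and Per2 knockout in each sex, and each group had a library in labelled batches 1, 2 and 3. Per2 encodes a protein that represses transcription in the circadian clock. The knockout is called cKO in the library names, but the cells in which Per2 was deleted, the driver of the deletion, the mouse strain and any allele that the controls carry are not stated in the labels. The title of the series names PER1, and the sample labels, which name Per2, were followed. The replicates are called biological, but whether each had a mouse of its own is not stated, so the spread behind each p-value is that between libraries, which may be technical.

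Mitochondrial DNA is transcribed from both strands into long precursor RNAs that are cut mainly at the tRNAs lying between the other genes. The rRNAs stand first on their strand, and in human cells the tRNA gene behind mt-Rnr2 is known to hold a binding site of the termination factor MTERF1. The mRNAs encode core membrane subunits of respiratory complexes I, III, IV and V, while the other subunits, the polymerase and the processing enzymes come from nuclear genes. Osteoclasts are rich in mitochondria, and respiration is known to supply much of their energy.

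The stretch at which the rRNA and mRNA genes meet is shown because the comparison below is between the RNAs on its sides. The first sequence (MT:2646-2780, GRCm38, plus strand) holds the last 30 bases of mt-Rnr2, the tRNA gene mt-Tl1 in capitals and the first 30 bases of mt-Nd1. The second (MT:995-1123, plus strand) holds the last 30 bases of mt-Rnr1, the tRNA gene mt-Tv in capitals and the first 30 bases of mt-Rnr2. Both are joined from the GENCODE M21 transcripts of the adjoining genes, and no base lies between those genes.
mt-Rnr2 / mt-Tl1 / mt-Nd1: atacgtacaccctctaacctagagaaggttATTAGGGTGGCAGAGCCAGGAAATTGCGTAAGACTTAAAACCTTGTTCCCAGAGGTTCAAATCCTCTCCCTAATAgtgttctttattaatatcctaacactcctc
mt-Rnr1 / mt-Tv / mt-Rnr2: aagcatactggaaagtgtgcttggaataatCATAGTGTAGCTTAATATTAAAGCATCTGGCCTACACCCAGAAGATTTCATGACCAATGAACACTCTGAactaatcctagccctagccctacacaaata

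Along the plus strand the order is mt-Rnr1 (70 to 1024), mt-Rnr2 (1094 to 2675), mt-Nd1 (2751 to 3707), mt-Nd2 (3914 to 4951), mt-Co1 (5328 to 6872), mt-Atp6 (7927 to 8607), mt-Nd4 (10167 to 11544), mt-Nd5 (11742 to 13565) and mt-Cytb (14145 to 15288). The gene mt-Nd6 (13552 to 14070) lies on the minus strand and shares 14 bases with mt-Nd5. None of the genes has an intron in the annotation. Because the strand setting of the counting is not given, reads of mt-Nd6 cannot be told apart from reads of transcripts of the other strand at that place. Whether the libraries were made by poly(A) selection or by depletion of rRNA is not given either, which bears on how well rRNAs are captured.

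Levels are FPKM, fragments scaled to gene length and to a denominator for each library, as the authors deposited them. How that denominator was set is not given. Changes are differences of log2(FPKM + 1) with the standard error of limma, and adjusted p-values are limma's with Benjamini-Hochberg adjustment over 12102 genes, a gene being called below 0.05. Reads assigned to genes numbered 13888150 to 17762190 per library, except for 41145397 in male knockout replicate 2. Behind each value of the 10 genes stood 564 to 361810 reads, with the fewest for mt-Atp6. The first principal component of all genes tested held 71.8% of the variance. The ratio of assigned reads to the denominator behind the authors' FPKM lay between 0.936 and 0.948 for female control libraries. It lay between 1.01 and 1.02 for female knockout libraries and between 1.07 and 1.11 for male libraries. The denominator is thus not the number of assigned reads, and the gap differs by group, so other scalings were tried for every comparison. Per2 itself was 0.579, 0.721 and 0.701 FPKM in male controls and 0.466, 0.39 and 0.23 in male knockouts. The female controls had 0.331, 0.53 and 0.368 FPKM, and the female knockouts 0.258, 0.204 and 0.589. Against its label, the library labelled female knockout replicate 3 thus had the highest Per2 value of the female libraries. Per2 rested on only 18 to 86 reads per library and was under 1 FPKM in each, so this order is uncertain. All 10 osteoclast markers were present, and their FPKM summed to 8239 to 12810 per library.

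The order of levels per length was led by mt-Co1, the catalytic subunit of complex IV, and closed by mt-Atp6, a membrane subunit of complex V, in each of the 4 groups. In male controls the mean was 5642 FPKM for mt-Co1 and 61.0 FPKM for mt-Atp6. The last place rests on mt-Atp6 without its identical nuclear copy Gm10925: the pair summed to 222 FPKM in female controls, above the 209 FPKM of mt-Rnr1. Next to mt-Co1 came mt-Nd1, a complex I subunit, and mt-Cytb, the mitochondrially encoded subunit of complex III, at 1811 and 1796 FPKM, and their ranges overlapped. Below them mt-Nd2, mt-Nd5 and mt-Nd6, at 794, 791 and 726 FPKM, each overlapped the next in that order. Lower still, mt-Nd4 and mt-Rnr1 overlapped at 626 and 602 FPKM. The large-subunit rRNA mt-Rnr2 stood apart at 357 FPKM. The same places at the head and foot of the order were kept in female controls, where mt-Nd4 moved up to the fourth place at 1534 FPKM, overlapping mt-Nd2 at 1493 FPKM. There the rRNAs changed places: mt-Rnr2 was 310 FPKM and mt-Rnr1 209 FPKM, with no overlap.

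**Figure D1:**
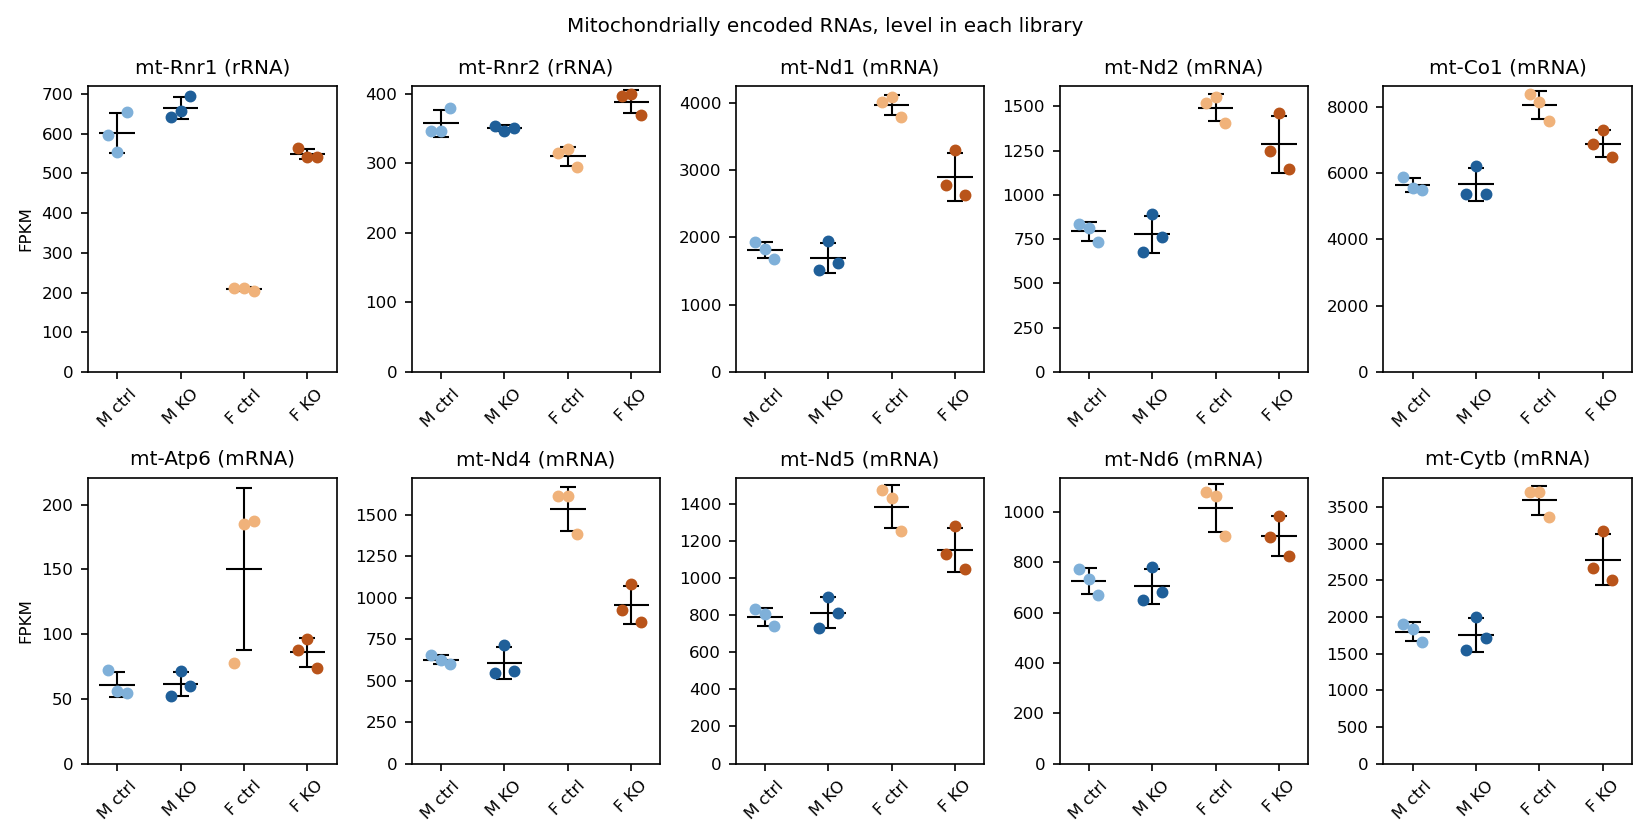
FPKM of the 10 RNAs in each library, with points for libraries, the long bar for the group mean and the error bar for the SD (n = 3); M and F are male and female, ctrl is control and KO is knockout. The female controls are lowest for mt-Rnr1, at 203 to 212 FPKM, and highest on average for every mRNA.

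In females the rRNAs rose in the knockout libraries while 5 of the 8 mRNAs fell. The small-subunit rRNA mt-Rnr1 rose 2.62-fold on the log2(FPKM + 1) scale and mt-Rnr2 1.25-fold. Of the mRNAs, mt-Nd4, mt-Nd1, mt-Cytb, mt-Nd5 and mt-Co1 fell, to between 0.62 and 0.86 of the level in controls. Over all 12102 genes limma called 24.9% higher and 24.9% lower in this comparison, 49.8% together, so a call in itself is common here. In bulk RNA, fewer cells of a type and less RNA per cell cannot be told apart.

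The rRNA mt-Rnr1, part of the small subunit of the mitochondrial ribosome, was 212, 212 and 203 FPKM in the 3 female control libraries, against 564, 542 and 540 FPKM in the 3 knockout libraries. The knockout libraries all lay above the controls, by 1.41, 1.35 and 1.41 on the log2 scale within batches 1, 2 and 3. Its log2 change was 1.39 ± 0.06 (limma adjusted p = 1.93e-08). For mt-Rnr2, part of the large subunit, the values were 315, 321 and 295 FPKM in the 3 female control libraries, against 396, 400 and 369 FPKM in the 3 knockout libraries. The groups did not overlap, and each batch gave nearly the same difference, 0.33, 0.32 and 0.32. The log2 change was 0.32 ± 0.05 (limma adjusted p = 3.31e-04). After quantile normalization it was 0.13 and was not called (limma adjusted p = 0.0618).

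Among the complex I subunits, which form the proton-pumping arm of the first respiratory complex, mt-Nd4 showed the greatest fall. It was 1611, 1609 and 1382 FPKM in the 3 female control libraries, against 926, 1079 and 854 FPKM in the 3 knockout libraries. The ranges were far apart, and the log2 change was −0.69 ± 0.11 (limma adjusted p = 4.31e-04). For mt-Nd1 the values were 4014, 4079 and 3789 FPKM in controls, against 2775, 3301 and 2622 FPKM after knockout. Again no knockout library reached a control library (−0.46 ± 0.10, limma adjusted p = 0.00346).

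The other complex I subunits overlapped between the groups. The mRNA of mt-Nd5, a distal subunit of the proton-pumping arm, was 1473, 1431 and 1251 FPKM in controls, against 1130, 1279 and 1047 FPKM after knockout. It was lower in the knockout library of each batch, and it passed (−0.27 ± 0.09, limma adjusted p = 0.0366). For mt-Nd2 the values were 1519, 1554 and 1406 FPKM against 1251, 1462 and 1146 FPKM (−0.22 ± 0.11, limma adjusted p = 0.105). With the labelled batch as a replicate block mt-Nd2 passed (limma adjusted p = 0.0435). The subunit mt-Nd6, encoded on the other strand, was 1080, 1064 and 905 FPKM in controls, against 902, 983 and 826 FPKM after knockout. Its difference of −0.17 ± 0.09 did not pass (limma adjusted p = 0.163), though each batch gave a lower knockout value.

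For mt-Cytb the values were 3706, 3701 and 3359 FPKM in the 3 female control libraries, against 2665, 3167 and 2499 FPKM in the 3 knockout libraries. No knockout library overlapped the controls (−0.38 ± 0.11, limma adjusted p = 0.0123). The most abundant mRNA, mt-Co1, was 8386, 8155 and 7569 FPKM in controls, against 6881, 7294 and 6468 FPKM after knockout. It too fell without overlap, by a small amount (−0.22 ± 0.07, limma adjusted p = 0.0209). For mt-Atp6 the values were 77.8, 185 and 188 FPKM in controls, against 88.0, 96.1 and 73.8 FPKM after knockout. Female control replicate 1 lay among the knockouts, and the difference did not pass (−0.70 ± 0.28, limma adjusted p = 0.0600).

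The groups did not overlap for 4 of the 8 mRNAs and for both rRNAs, where 29.9% of all genes tested were lower and 28.5% higher without overlap. The median log2 change was −0.32 over the 8 mRNAs and 0.86 over the 2 rRNAs, against −0.01 over all genes tested. The calls of mt-Rnr1, mt-Rnr2, mt-Nd1 and mt-Nd4 held when any of the 12 libraries was left out. The call of mt-Cytb was lost without female knockout replicate 3 (limma adjusted p = 0.0511). Those of mt-Co1 and mt-Nd5 were lost without female control replicate 1 or 2 or female knockout replicate 1 or 3 (limma adjusted p up to 0.0808 and 0.133). Female knockout replicate 3 was also the library whose Per2 value, on few reads, went against its label. Without it mt-Rnr1 differed by 1.40, mt-Rnr2 by 0.36, mt-Nd1 by −0.39 and mt-Nd4 by −0.61. In that fit 2 of the 8 mRNAs and both rRNAs were called.

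Scaling moved the count of mRNAs but not their side. With assigned reads as the denominator, with nuclear protein-coding reads as the denominator and by voom, 8 of 8 mRNAs were lower and both rRNAs higher. With median-ratio rescaling and in a fit of the 6 female libraries alone it was 4 of 8, the call of mt-Nd5 being lost (limma adjusted p = 0.0650 and 0.0532). After quantile normalization 7 of 8 were lower, without mt-Co1 (limma adjusted p = 0.0515). The first 3 scalings moved the median of all genes to −0.10, −0.11 and −0.12. They moved the share of called genes that were higher from 50.1% to 33.7%, 32.7% and 33.5%, with 41.1% after quantile normalization. Lower calls were thus the more common over all genes too, and the count of 8 of 8 stands beside that shift. Relative to the median of all genes, over the deposited scaling and 5 others, mt-Rnr1 lay between 1.28 and 1.41, mt-Rnr2 between 0.18 and 0.34, mt-Nd4 between −0.92 and −0.67 and mt-Nd1 between −0.49 and −0.44. With no filter on low values, which raised the genes tested to 28148, mt-Nd4 was the only mRNA called, and both rRNAs were.

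**Figure D2:**
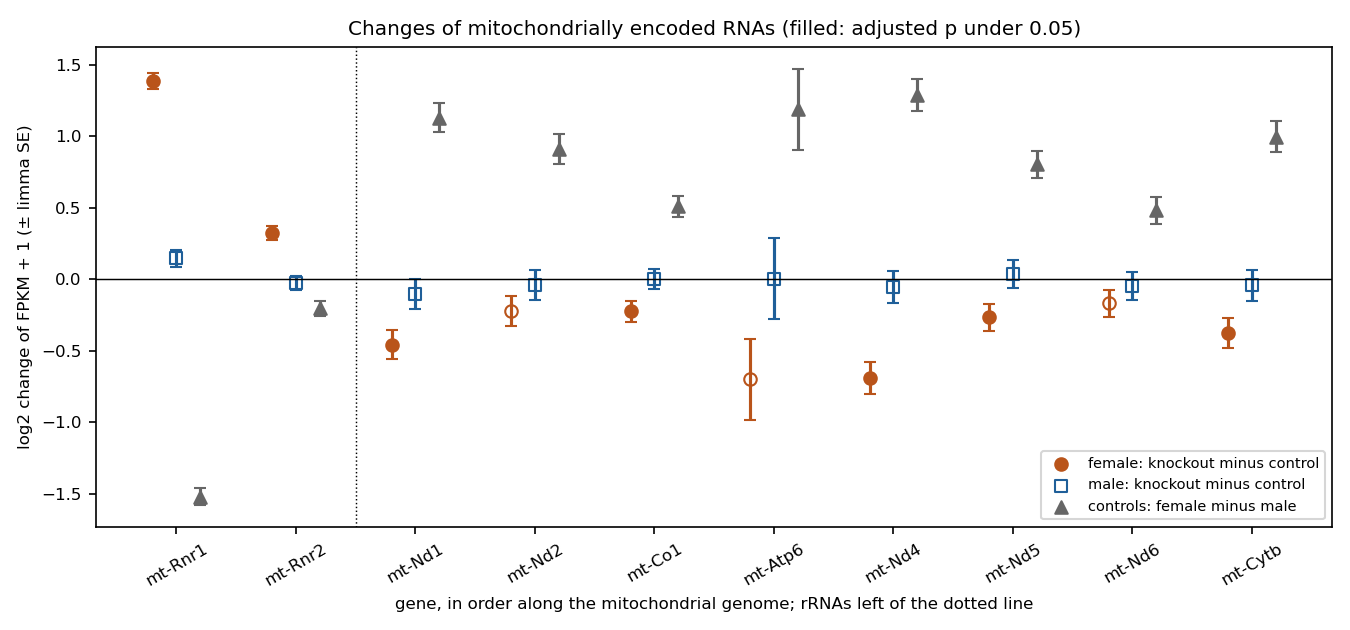
Log2 change of FPKM + 1 with the limma standard error for the 10 RNAs in order along the genome, in 3 comparisons; filled symbols passed at an adjusted p under 0.05. The rRNAs and mRNAs lie on opposite sides of 0 both for female knockout minus control and for female minus male controls, although mt-Rnr2 changes side in the latter under 4 other scalings (0.01 to 0.16), and no male symbol is filled.

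In males none of the 10 RNAs passed, and limma called 0 of all genes tested (0.00%), with 822 at an unadjusted p under 0.05 and 2 called by voom. The rRNA mt-Rnr1 was 597, 555 and 655 FPKM in the male control libraries, against 643, 657 and 696 FPKM in the knockout libraries. The knockout value was higher in each batch, the ranges overlapped, and the log2 change was 0.15 ± 0.06 (limma adjusted p = 0.708). For mt-Rnr2 the values were 346, 347 and 379 FPKM in controls, against 354, 346 and 351 FPKM after knockout, a difference of −0.03 ± 0.05 (limma adjusted p = 0.963).

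The male mRNA values of knockouts spread around those of controls. For mt-Nd1 they were 1924, 1827 and 1681 FPKM in controls, against 1520, 1948 and 1615 FPKM after knockout. Those of mt-Nd4 were 653, 621 and 603 FPKM against 543, 715 and 560 FPKM. The deeply sequenced male knockout replicate 2 was the highest of the male knockouts for every mRNA. For mt-Co1 the values were 5884, 5544 and 5499 FPKM in controls, against 5372, 6224 and 5372 FPKM after knockout, and for mt-Cytb 1901, 1836 and 1652 FPKM and 1544, 1994 and 1714 FPKM. The log2 differences of the 8 mRNAs ran from −0.10 for mt-Nd1 to 0.04 for mt-Nd5, with limma adjusted p-values of 0.916 to 0.999 and no mRNA whose groups were apart. Of all genes tested, 7.06% were higher and 5.24% lower without overlap in males, and of the 10 RNAs none was.

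Whether the difference between knockout and control was itself different in females and males was tested with the interaction in the same model. It passed for 3 of the 10 RNAs, mt-Rnr1 (1.24 ± 0.08, limma adjusted p = 1.64e-06), mt-Rnr2 (0.35 ± 0.07, limma adjusted p = 0.00336) and mt-Nd4 (−0.63 ± 0.16, limma adjusted p = 0.0102). Over all genes tested 17.9% were called with a higher and 16.7% with a lower female difference, 34.6% together. The other 7 mRNAs had values between −0.70 and −0.12 and did not pass (limma adjusted p = 0.0802 for mt-Nd1 to 0.515 for mt-Nd6). With assigned reads, nuclear protein-coding reads or voom 5 of the 8 mRNAs passed, all lower. With the replicate block mt-Nd1 and mt-Cytb passed as well (limma adjusted p = 0.0324 and 0.0484). After quantile normalization mt-Rnr2 did not pass (0.12, limma adjusted p = 0.253) and mt-Rnr1 and mt-Nd4 did. The share of called genes with a higher female difference was 51.7%, and 34.4%, 32.7% and 35.6% with assigned reads, nuclear protein-coding reads and voom. Under those scalings lower calls were thus the more common over all genes too.

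Female and male controls were compared in the same model, in which 60.3% of all genes were called. All 8 mRNAs were higher in female than in male controls, where 29.5% of all genes tested were higher, and mt-Rnr1 was lower, where 30.7% were lower. The greatest differences among mRNAs were those of mt-Nd4 (1.29 ± 0.11, limma adjusted p = 1.81e-06), mt-Atp6 (1.19 ± 0.28, limma adjusted p = 0.00355) and mt-Nd1 (1.13 ± 0.10, limma adjusted p = 2.54e-06). The place of mt-Atp6 is uncertain, as batches 1, 2 and 3 gave 0.11, 1.70 and 1.76. With the reads of its nuclear copies added, mt-Atp6 differed by 0.76 (limma adjusted p = 0.00654). The smallest were mt-Co1 (0.51 ± 0.07) and mt-Nd6 (0.48 ± 0.09), both called. With no filter on low values 7 of the 8 were called, without mt-Co1 (limma adjusted p = 0.223). No mRNA overlapped between the groups, while 32.2% of all genes were higher without overlap. The rRNA mt-Rnr1 was lower in female controls by 1.49, 1.38 and 1.69 in the 3 batches, −1.52 ± 0.06 in the model (limma adjusted p = 2.35e-09), and 32.7% of all genes were lower without overlap. For mt-Rnr2 the difference was −0.20 ± 0.05 (limma adjusted p = 0.00488), but its sign turned to 0.01 with assigned reads, 0.03 with nuclear protein-coding reads, 0.01 by voom and 0.16 after quantile normalization. The first 3 were not called (limma adjusted p = 0.866, 0.558 and 0.861), while after quantile normalization mt-Rnr2 was called higher in female controls (limma adjusted p = 0.0211). The first 3 of these scalings moved the median of all genes to 0.18, 0.20 and 0.22, and relative to it mt-Rnr2 stayed at −0.17, −0.16 and −0.21, against 0.07 after quantile normalization. They moved the share of called genes that were higher in females from 49% to 69.7%, 71.3% and 69.6%, with 60.9% after quantile normalization.

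The knockouts of the 2 sexes were compared in the same way. Of the mRNAs, 7 of 8 were higher in females, from 0.28 for mt-Co1 to 0.78 for mt-Nd1, and mt-Atp6 did not pass (0.49 ± 0.28, limma adjusted p = 0.212). The call of mt-Co1 was lost after quantile normalization and with no filter (limma adjusted p = 0.304 and 0.628), and that of mt-Nd6 with no filter (limma adjusted p = 0.0628). In turn mt-Atp6 passed with the reads of its copies added (0.57, limma adjusted p = 0.0487), in a fit of the 6 knockout libraries alone (limma adjusted p = 0.0322) and without female control replicate 1 (limma adjusted p = 0.0209). Of all genes tested 13.1% were higher and 20.4% lower, 33.5% together, and 39.1% of the called genes were higher, which became 66.8%, 69.2% and 67.1% with assigned reads, nuclear protein-coding reads and voom and 57.3% after quantile normalization. No member overlapped between these groups, where 20.9% of all genes were higher and 27.9% lower without overlap. The rRNA mt-Rnr1 was lower in female knockouts (−0.28 ± 0.06, limma adjusted p = 0.00403), although after quantile normalization the difference was −0.09 and not called. For mt-Rnr2 the difference of 0.15 ± 0.05 passed narrowly (limma adjusted p = 0.0439) and did not with the replicate block (limma adjusted p = 0.0624) or in 8 of the 12 fits that left out a library (limma adjusted p up to 0.135). The call of mt-Nd6 was lost without male knockout replicate 1 or female knockout replicate 2 (limma adjusted p = 0.0575 and 0.0564). The female comparison shares its libraries with both comparisons between the sexes, so these values stand side by side and are not independent.

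Shares of assigned reads do not use the denominator of the deposited FPKM, but they amount to scaling by assigned reads. Under that scaling the median of all genes moved to −0.10 for female knockout minus control and to 0.18 between control sexes. The 8 mRNAs took 1.57%, 1.47% and 1.39% of the assigned reads in male controls and 1.34%, 1.62% and 1.39% in male knockouts. The female controls gave 3.00%, 2.94% and 2.71%, and the female knockouts 2.13%, 2.37% and 1.98%. The female knockouts thus lay between the male libraries and the female controls, with no overlap on either side. The 2 rRNAs took 0.0748%, 0.0749% and 0.0705% of the assigned reads in the female control libraries, against 0.116%, 0.114% and 0.108% in the knockout libraries. In male libraries their share was 0.0990% to 0.111%, so the female controls alone stood below, and the female knockouts overlapped the males.

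Ratios between RNAs of the same library were compared next. The FPKM of mt-Nd1 was 12.7, 12.7 and 12.9 times that of mt-Rnr2 in the female control libraries, against 7.001, 8.25 and 7.10 times in the knockout libraries. In males the ratio was 4.44 to 5.56 in controls and 4.29 to 5.63 in knockouts. The log2 ratio of mt-Rnr2 to mt-Nd1 rose by 0.78 in female knockouts, without overlap (two-sided exact permutation p = 0.1, which is the lowest possible with 3 libraries against 3), and differed by 0.08 in males (exact permutation p = 0.8). Averaged over the sexes the difference was 0.43 (exact permutation p = 0.04 among 400 regroupings within sex, which can give 0.005 at the smallest). It was 0.06 after Benjamini-Hochberg adjustment over the 3 ratios computed, and with labels exchanged only within pairs of the same batch as a replicate block the exact permutation p was 0.125, where 0.0312 is the smallest possible.

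For mt-Rnr1 to mt-Nd1 the log2 ratio differed by 0.25 in males (exact permutation p = 0.2) and by 1.85 in females (exact permutation p = 0.1). Its mean over the sexes was 1.05 (exact permutation p = 0.01, adjusted 0.03, and 0.0312 with the replicate block). For mt-Rnr2 to mt-Co1 the differences were −0.03 in males and 0.55 in females. Their mean was 0.26 (exact permutation p = 0.07, adjusted 0.07, and 0.188 with the replicate block). Over all members, the log2 ratio of summed rRNA to summed mRNA FPKM was −5.38, −5.35 and −5.32 in the female control libraries, against −4.11, −4.31 and −4.09 in the knockout libraries. In male controls it was −3.77, −3.76 and −3.49, and in male knockouts −3.48, −3.75 and −3.47. As with the share of the mRNAs, but not that of the rRNAs, the female knockouts lay between the female controls and the males and overlapped neither.

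The rRNAs differed between groups by unequal amounts. The ratio of mt-Rnr1 to mt-Rnr2, a measure chosen after the values were seen and so given with no test, was 0.671, 0.662 and 0.689 in the female control libraries, against 1.42, 1.35 and 1.46 in the knockout libraries. In male controls it was 1.73, 1.60 and 1.73, and in male knockouts 1.82, 1.90 and 1.98. The female controls alone had less mt-Rnr1 than mt-Rnr2 per length.

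**Figure D3:**
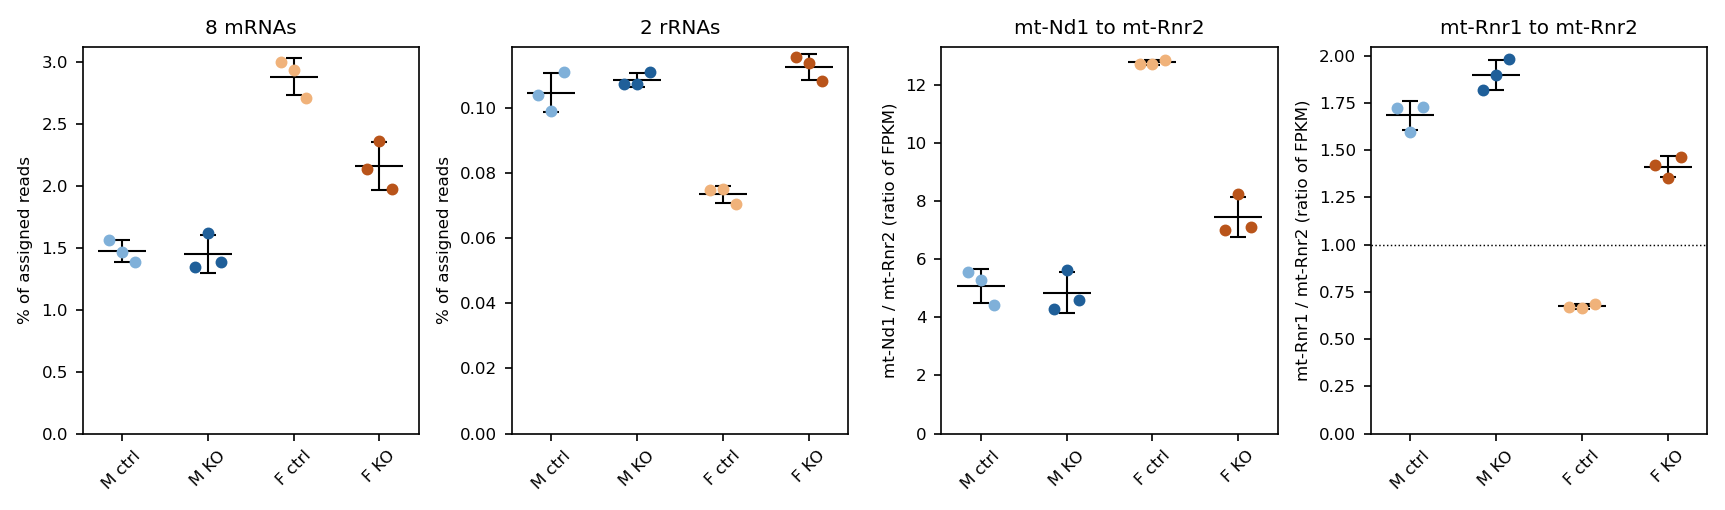
Share of assigned reads in percent for the 8 mRNAs and the 2 rRNAs, and the ratios of mt-Nd1 to mt-Rnr2 and of mt-Rnr1 to mt-Rnr2 FPKM, in each library with the group mean and SD (n = 3). The mRNA share and the mt-Nd1 to mt-Rnr2 ratio are highest in female controls, and mt-Rnr1 to mt-Rnr2 falls below the dotted line at 1 in those 3 libraries only.

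Nuclear copies of mitochondrial sequence can take or share reads, so each of the 10 transcripts was aligned to all annotated transcripts. Only matches to transcripts annotated as pseudogenes were kept, and the genome itself was not searched, so copies outside that annotation would not have been found. For 7 of the 10 a pseudogene copy of at least 100 bases with at least 90% identity was found, and none was found for mt-Nd1, mt-Rnr1 or mt-Rnr2. The copy of mt-Atp6, the pseudogene Gm10925 on chromosome 1, is identical over 678 of 678 aligned bases. For mt-Nd4, Gm28439 on chromosome 1 is identical over 876 of 876 bases, of the 1378 in the gene. The copy of all of mt-Co1, Gm13340 on chromosome 2, is identical at 1508 of 1545 bases, and Gm29216 on chromosome 1 matches 482 of 483 bases of its end. The first 90 bases of mt-Atp6 and mt-Co1 are shown with those of their copies, from the GENCODE M21 transcripts, with differing bases in capitals. The former pair has 0 such bases in this stretch and the latter 3.
mt-Atp6: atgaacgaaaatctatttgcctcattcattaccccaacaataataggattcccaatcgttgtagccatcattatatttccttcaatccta
Gm10925: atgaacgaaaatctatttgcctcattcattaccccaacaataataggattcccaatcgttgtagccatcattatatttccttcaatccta
mt-Co1: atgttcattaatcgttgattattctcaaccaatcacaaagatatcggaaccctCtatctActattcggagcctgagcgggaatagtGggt
Gm13340: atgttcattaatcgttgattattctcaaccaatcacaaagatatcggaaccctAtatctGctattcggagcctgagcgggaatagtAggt

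The copies differed widely in level. Gm10925 was 78.1, 75.4 and 61.6 FPKM in the female control libraries, against 83.2, 118 and 73.3 FPKM in the knockout libraries. It lay above mt-Atp6 in male control replicate 3, male knockout replicate 1, female control replicate 1 and female knockout replicate 2, and below it in the other 8 libraries. Of the reads on the pair, mt-Atp6 held 50%, 71.2% and 75.4% in female controls, and 41.5% to 54.6% in the other 9 libraries. Female control replicate 1, the library of its group with the low mt-Atp6 value, was thus the one whose reads were split evenly. Without that library mt-Atp6 was 1.12 lower in female knockouts on the log2 scale (−1.12, limma adjusted p = 2.39e-04), and its interaction passed too (−1.12, limma adjusted p = 0.00245). With the reads of the copies added to their genes, an alternative chosen after the data were seen, mt-Atp6 differed by −0.30 (limma adjusted p = 0.235), while mt-Nd4 was −0.68 (limma adjusted p = 4.97e-04) and mt-Co1 −0.22 (limma adjusted p = 0.0232). Gm28439 was 9.29 to 23.6 FPKM over the 12 libraries, far below mt-Nd4, and Gm13340 was 0.29 to 1.31 FPKM. How reads that match both places were handled is not stated in the labels, so the levels of mt-Atp6 and mt-Nd4 are uncertain, and the part of the copies in their changes was not tested.

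**Figure D4:**
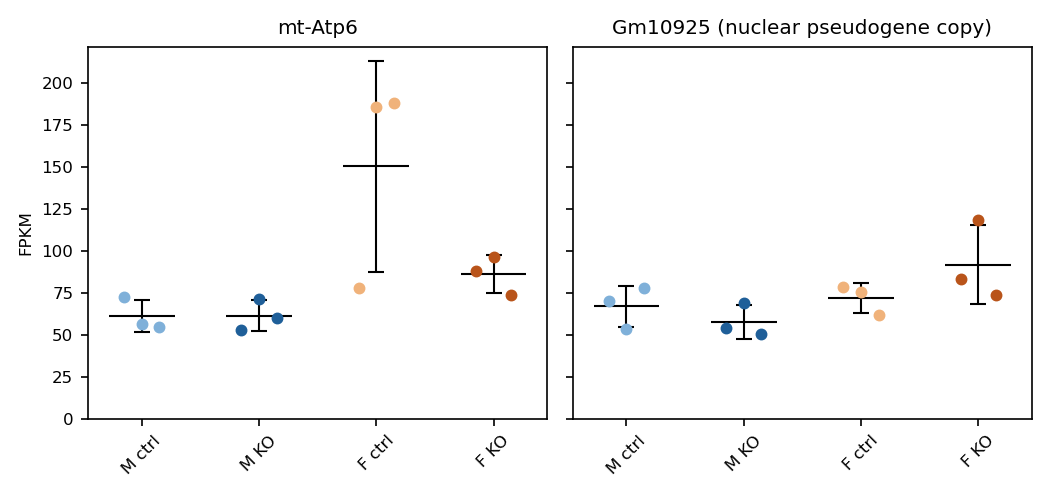
FPKM of mt-Atp6 and of its nuclear pseudogene copy Gm10925 in each library on a common axis, with group mean and SD (n = 3). In female control replicates 2 and 3 mt-Atp6 is 185 and 188 FPKM, while female control replicate 1, at 77.8 FPKM, is level with the copy.

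The other 5 mitochondrial mRNAs had means of 1.52 FPKM (mt-Atp8) to 126 FPKM (mt-Co2). In female knockouts 2 of the 5 were lower, mt-Atp8 (−0.90, limma adjusted p = 0.0200) and mt-Nd3 (−0.32, limma adjusted p = 0.0499), where 24.9% of all genes tested were lower. The value of mt-Atp8 rests on 1 to 22 reads per library, and the gene shares 43 of its 204 bases with mt-Atp6. Its female controls spread widely, at 2.45, 5.77 and 1.65 FPKM. In female controls 5 of 5 were higher than in male controls, where 29.5% of all genes tested were higher. Neither mt-Atp8 nor mt-Nd3 was called lower in female knockouts without female knockout replicate 3. Their copies on chromosome 1 match mt-Co2, mt-Co3, mt-Nd3 and mt-Nd4l at 99.7% to 100% of aligned bases, so these levels are uncertain in the same way.

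The tRNAs are 59 to 75 bases long, and 18 of the 22 were tested, while 3 were listed at 0 in every library. In female knockouts 3 of the 18 were higher and 1 lower, smaller shares than the 24.9% of all genes called in each direction. The higher ones, mt-Tc (1.17), mt-Te (0.88) and mt-Tn (0.69), are all encoded on the minus strand, like mt-Nd6, and the lower one, mt-Tl2 (−1.36), on the plus strand. By strand, a split chosen after the values were seen, the median was 0.69 over 7 tRNAs of the minus strand and −0.14 over 11 of the plus strand. The tRNA between mt-Rnr2 and mt-Nd1, mt-Tl1, was 114, 136 and 119 FPKM in the female control libraries, against 128, 86.8 and 104 FPKM in the knockout libraries, which did not pass (−0.22, limma adjusted p = 0.384). Reads over such short genes can belong to uncut precursors or neighbouring transcripts, and with no strand setting given they cannot be told apart.

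Nuclear genes that copy and process mitochondrial DNA and RNA were followed as lists. Of 17 genes of mitochondrial transcription and DNA replication, 9 were lower in female knockouts and none higher (median −0.19, with 7 to 11 lower and none higher under the other scalings). Of all genes tested 24.9% were lower and 24.9% higher. Tfam, which packages mitochondrial DNA and starts its transcription, was 10.3 ± 0.172 FPKM (SD, n = 3) in control females and 8.22 ± 0.501 after knockout (−0.29 ± 0.05, limma adjusted p = 8.76e-04). Twnk, the replicative helicase, was 4.72 ± 0.266 and 2.64 ± 0.237 FPKM (−0.65, limma adjusted p = 2.12e-05). Tfb2m, the initiation factor of the polymerase, fell as well (−0.59), as did Top1mt, the mitochondrial topoisomerase (−0.55). In female against male controls 8 of the 17 were higher and none lower, where 29.5% of all genes tested were higher and 30.7% lower.

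Of 36 tested genes of mitochondrial RNA processing, modification and decay, 17 were lower in female knockouts and 1 was higher (median −0.21, 15 to 24 lower and 1 or 2 higher under the other scalings), against 24.9% lower and 24.9% higher over all genes tested. Those with the smallest p were Ptcd3, a pentatricopeptide protein of the mitochondrial ribosome (−0.63, limma adjusted p = 9.81e-06), Rcc1l (−0.56), Fastkd2 (−0.49) and Trub2 (−0.45). Rcc1l, Fastkd2 and Trub2 are known, from human cells, as parts of a module that acts on the large-subunit rRNA, the counterpart of mt-Rnr2. Without female knockout replicate 3 the counts were 13 lower and 1 higher. In female against male controls 22 of the 36 were higher and 4 lower, where 29.5% of all genes tested were higher and 30.7% lower. Among 5 tested regulators of mitochondrial biogenesis, Pprc1 (−0.57), Gabpa (−0.21) and Nrf1 (−0.13) were lower, and Esrra was higher (0.14, limma adjusted p = 0.0421), although the last was not called under 4 other scalings or without female knockout replicate 3. With median-ratio rescaling, quantile normalization or without that library 2 and not 3 genes of the list were called lower.

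The listed nuclear subunits of the same respiratory complexes, and of complex II, to which none of the mRNAs belongs, did not fall with the mRNAs under the deposited scaling. In female knockouts 5 of 9 tested subunits of complex I, 1 of 4 of complex II, 3 of 7 of complex III, 8 of 10 of complex IV and 4 of 15 of complex V were higher, and none was lower, where 24.9% of all genes tested were higher. The counts of complexes II and V are near that share. The medians were 0.15, 0.10, 0.18, 0.20 and 0.09. Under assigned reads these counts became 1 higher and 1 lower for complexes I and II, 1 and 2 for III, 3 and 1 for IV and 1 and 2 for V, so the direction of these lists depends on the scaling. Relative to the median of all genes, the median of the complex IV subunits was 0.20 under assigned reads and 0.10 after quantile normalization, where the mitochondrial mRNAs lay at −0.33 and −0.47. Cox5b, a nuclear subunit that joins mt-Co1 in complex IV, was 71.5 ± 1.46 FPKM (SD, n = 3) in control females and 98.4 ± 7.93 after knockout (0.45 ± 0.05, limma adjusted p = 4.32e-05). Cox4i1, the first nuclear subunit to be added, was 264 ± 10.8 and 335 ± 18.0 FPKM (0.34, limma adjusted p = 1.79e-04).

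**Figure D5:**
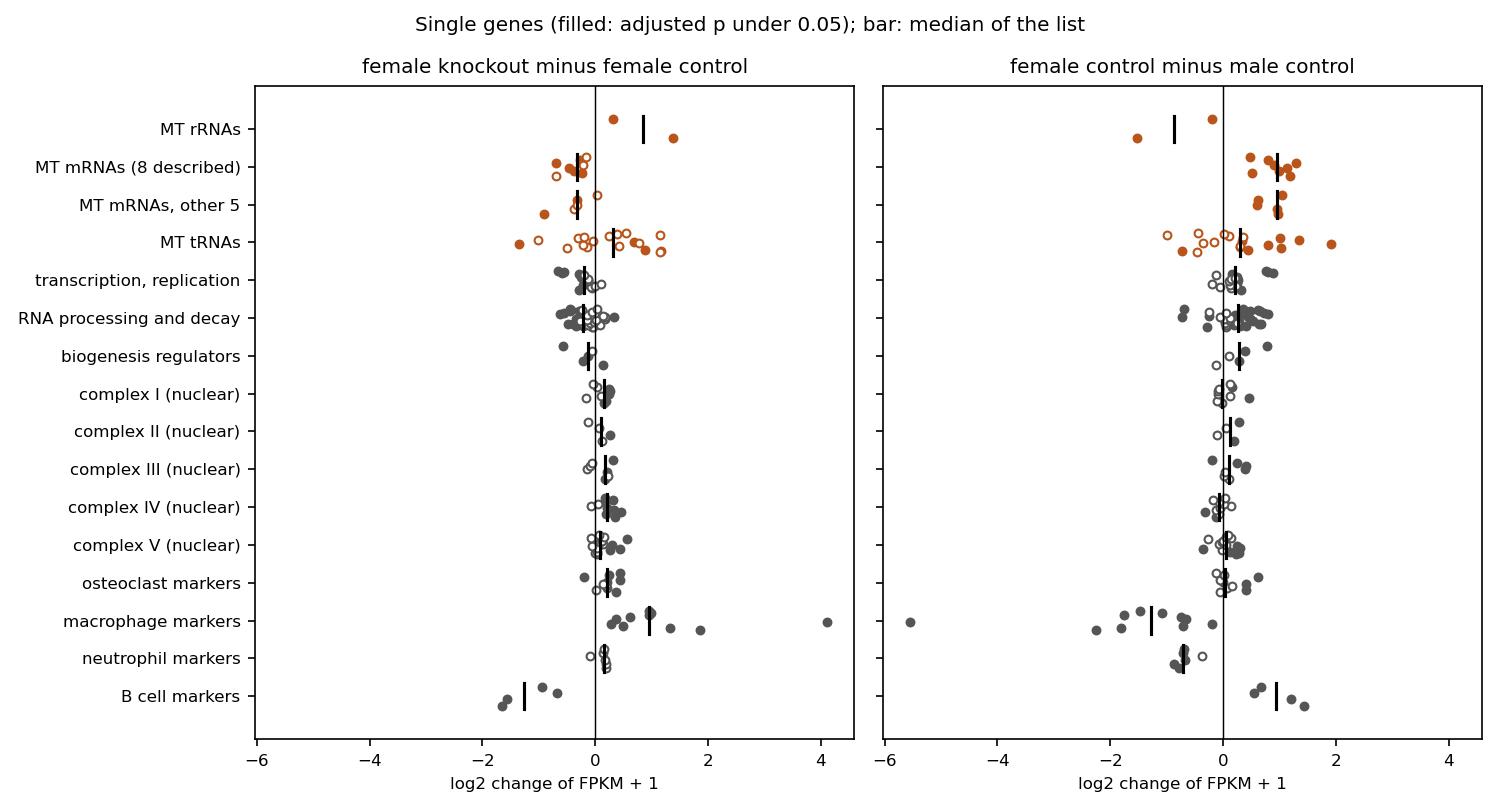
Log2 change of FPKM + 1 of single genes by list, in female knockout minus female control (left) and female minus male controls (right); filled points passed at an adjusted p under 0.05 and the bar is the median of the list. On the left the 8 mitochondrial mRNAs have a median of −0.32 and the nuclear complex IV subunits 0.20, the latter mostly not called under the other denominators; on the right mt-Rnr2 (−0.20) changes side under 4 other scalings.

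Markers of other cells moved with the female groups. Of all genes tested 24.9% were higher and 24.9% lower in female knockouts, and 29.5% were higher and 30.7% lower in female than in male controls. All 10 macrophage markers were higher in female knockouts (median 0.96) and lower in female than in male controls (median −1.28), with 9 or 10 called that way under each scaling. Summed over the list, FPKM ran from 7133 to 8841 in female control libraries, from 12170 to 13340 after knockout and from 12940 to 15710 in males. All 4 B cell markers were higher in female than in male controls (median 0.94) and lower in female knockouts, with sums between 24.95 and 38.2 FPKM in control libraries and between 10.01 and 13.2 FPKM after knockout. Of the osteoclast markers 5 of 10 were higher and 1 lower, although under quantile normalization 1 was higher and 1 lower. None of the 6 neutrophil or 5 stromal markers was called between the female groups. In female against male controls 5 of the 6 neutrophil markers (median −0.71, 3 to 6 called under the other scalings) and 1 of the 5 stromal markers were lower. The 3 T cell markers were under 1 FPKM in every library. The part of these cells in the mitochondrial RNAs was not tested.

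Nuclear RNAs that lack a poly(A) tail in dividing cells, mostly histone genes, were looked at because rRNA capture depends on library selection. Of 25 listed, 24 were in the table, 18 stayed under 1 FPKM in every library, and Rmrp, Rpph1 and Terc were listed at 0 throughout. Of the 6 tested, 3 were higher in female knockouts and none lower: H1f2 (0.65), H2bc4 (0.54) and H4c9 (0.36). Over all genes tested 24.9% were higher. Whether the RNAs of the 6 lacked a tail in these cells was not measured. The sum of the list ran from 79.0 to 96.8 FPKM in female control libraries, from 125 to 144 FPKM after knockout and from 100.1 to 105.5 FPKM in males, with the denominator of the deposited FPKM. In female against male controls 2 of the 6 tested were lower (median −0.25), where 30.7% of all genes tested were lower. None of the 6 was called with assigned reads (median −0.08), nuclear protein-coding reads, voom or quantile normalization. Of 2 long RNAs kept in the nucleus, Neat1 was lower in female knockouts (−0.52), and Malat1 did not pass (−0.02). The part of these RNAs in the rRNA difference was not tested.

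The nuclear protein-coding genes whose levels followed a mitochondrial RNA most closely were taken by Pearson's r of log2(FPKM + 1) over the 12 libraries, as a description in which the group differences carry most of the variation. Those most like mt-Nd1 were Retsat (r = 0.989), Kmt5a (0.988), Akr1b8 (0.988), Jdp2 (0.988) and Uqcrc2 (0.986), the last a core subunit of complex III. Jdp2, a transcription factor of the AP-1 family, was 253 FPKM on average in female controls, 199.9 in female knockouts and 136 and 133 in male controls and knockouts. Those most like mt-Rnr2 were 4931406C07Rik (0.94), Ndfip2 (0.929), Nuak1 (0.927), Eif4ebp1 (0.923) and the glycolytic enzyme Aldoa (0.923). No gene stood in both sets of 5, which adds nothing, since mt-Nd1 was highest and mt-Rnr2 lowest in female controls.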

How the data were processed

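RNA sequencing of 12 osteoclast libraries was read from a single table of FPKM values deposited by the authors. The aligner HISAT2 2.0.5, the counter featureCounts 1.5.0-p3 and the build mm10 are named in the submitters' processing notes. Strand setting, treatment of reads that match several places, poly(A) selection or rRNA depletion and the FPKM denominator are not given in these sources. Positions of all 37 mitochondrial genes match GENCODE M21 (GRCm38), while 2.9% of all shared genes do, so other coordinates are not given. In each library FPKM times length was a whole multiple, within 0.01, of what 1 read is worth for 100.0% of values, and the reads recovered in this way gave the depth, the shares and the voom fit.

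The 12102 genes reaching an FPKM of 1 in 3 or more libraries were fitted with limma 3.58.1 in R 4.3.3 on log2(FPKM + 1), 4 group means, trended prior variance and 11 total degrees of freedom, two-sided, Benjamini-Hochberg threshold 0.05. This scale understates changes of low genes. On simulated data for the female comparison, 192 of 200 changed genes (log2 size 1, 12102 genes) were recovered, with 8 false calls. The changed genes were well-read ones, evenly up and down, and far fewer than the 49.8% of genes called in the data. These figures thus check the fit and give no error rates for the data. Ratios used exact permutation tests (scipy 1.17.1). Copies were found with BLAST+ 2.17.0 among GENCODE M21 transcripts annotated as pseudogenes. Replicates correlated at 0.986 to 0.992, and chi-square per degree of freedom between them was 4.09 to 11.3, so none was a copy of another.

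Libraries with the same number share a labelled batch, which pairs them by label. Deviations from group means correlated at 0.021 for the same number (18 pairs, −0.118 to 0.092) and −0.011 for different numbers (36 pairs). The blocked value is given where it changes a call. The genes, the lists and the rules were chosen with earlier results of these data known. By rule all 10 genes, Per2 and up to 4 genes per list with the smallest p in females were named, with the 5 nuclear genes most like mt-Rnr2 and mt-Nd1; some listed members are given by count only. Other scalings, filters, pseudocounts, voom, 6-library fits and leaving out each library were tried.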

Additional observations from a re-analysis of the deposited data

Results flagged for a closer look

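The knockout effect differed between females and males for 3 of the 10 RNAs by the interaction term of limma. Over all genes tested 34.6% were called by that term, so the count is near the share of all genes. For mt-Rnr1 the difference was 1.24 on the log2 scale, with the knockout above the control in 3 of 3 female and 3 of 3 male batches. For mt-Rnr2 it was 0.35, with the knockout higher in 3 of 3 female batches and in 1 of 3 male batches. For mt-Nd4 it was −0.63, with the knockout lower in 3 of 3 female and 2 of 3 male batches. The female controls and knockouts also differed in the macrophage markers, whose summed FPKM was 7133 to 8841 and 12170 to 13340, and the part of these cells was not tested.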

How the results depend on the processing

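Of 1190 recomputed member results, 1085 kept direction and side of the threshold. With the direction kept, 42 became called and 36 lost their call. The other 27 changed sign, 23 of these in males, where no RNA was called. The male gene count of 0 became 4 with pseudocount 5, 2 with an FPKM minimum of 5, assigned reads, nuclear protein-coding reads or voom and 1 with median-ratio rescaling, and ran from 0 to 1 with a library left out. In the male comparison mt-Co1 became −0.0069 (assigned reads), −0.0034 (median-ratio), −0.0049 (nuclear protein-coding reads), −0.125 (quantile) and −0.0060 (voom), mt-Atp6 −0.0033, −0.0014 and −0.11 (assigned reads, nuclear protein-coding reads, copies added) and mt-Rnr2 0.013 (quantile). Between control sexes mt-Rnr2 became 0.0099, 0.033, 0.164 and 0.010 (assigned reads, nuclear protein-coding reads, quantile, voom). Of these only the quantile value was called, as higher in female controls. The cause was not tested. With a library left out, male changes ran from −0.049 to 0.017 for mt-Rnr2, −0.139 to 0.055 for mt-Nd2, −0.070 to 0.036 for mt-Co1, −0.108 to 0.128 for mt-Atp6, −0.180 to 0.017 for mt-Nd4, −0.035 to 0.112 for mt-Nd5, −0.124 to 0.0094 for mt-Nd6 and −0.141 to 0.044 for mt-Cytb.

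The log2 ratio of mt-Rnr2 to mt-Nd1 (0.43 over both sexes) was 0.26 with mt-Co1 in place of mt-Nd1, 0.428 with the replicate block (exact permutation p = 0.125) and 0.387 to 0.485 with a library left out. Its p adjusted over the 3 ratios was 0.06, and the unadjusted exact p reached 0.05 without male control replicate 1 and exceeded it without male knockout replicate 1. As a difference of mean log2(FPKM + 1), rRNA against mRNA was −0.903, −0.813, −2.68 and −1.44 in male controls, male knockouts, female controls and female knockouts, and without mt-Nd6 the ratio in female controls was −5.28. The block changed no call beyond those given above. The fewest reads behind a value of these RNAs were 564, for mt-Atp6.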

Other observations

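Gm29216, the chromosome 1 pseudogene that matches the end of mt-Co1, was 47.3 to 59.5 FPKM in female controls and 126, 144 and 59.3 FPKM in female knockouts. Gm28437, the copy of mt-Co3, was 183, 35.2 and 28.5 FPKM in female controls and 155 FPKM in male knockout replicate 2, against 33.9 to 66.7 FPKM in the other 8 libraries, so single libraries stood apart within a group. These values were picked after they were seen.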
